A study of Mus musculus with 11 samples.

Results

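Fibroblast wells of bile duct ligated (BDL) and uninjured mouse livers were compared in the Smart-seq2 data, in which single hepatic mesenchymal cells were sequenced in the wells of microtitre plates. A well was counted as a fibroblast well when it held at least 50000 gene reads, at least 100 summed reads of the fibroblast genes Pdgfra, Clec3b, Dpt, Entpd2 and Gpx3, and fewer than 100 summed reads of the smooth muscle genes Myh11 and Cnn1. Members were thus chosen by measured read counts, and 431 of the 1146 BDL and uninjured wells of plates 1, 2 and 4, among 2292 wells holding cells on 6 plates, met the rule. Reads were summed over the wells of each layout entry on each plate, called a portion here, and 1 BDL portion of 8 wells on plate 2 fell under the minimum of 10 wells. The remaining 423 wells formed 4 BDL portions, with 88 and 14 wells on plate 1 (BDL 1 and BDL 2), 77 on plate 2 and 113 on plate 4, and 3 uninjured portions, with 48, 31 and 52 wells on plates 1, 2 and 4.

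All cells came from male mice of 10 to 16 weeks with the Pdgfrb-BAC-eGFP reporter (C57BL/6 background), in which cells expressing PDGFRβ carry GFP. BDL livers were taken 14 days after ligation, and uninjured livers had no ligation. Livers were dissociated by the first of the study's digestion protocols, and GFP+ cells without CD45 or CD102 were sorted, so the comparison covers what that digestion and gate released from each liver. The labels give 3 mice for plate 1, 3 for plate 2 and 2 for plate 4. Plates 1 and 2 have the same layout, and the labels do not say whether they share mice, so the spread between portions may be partly technical. Plates 3 and 5, with mice given carbon tetrachloride (CCl4) for 6 weeks and uninjured mice, were used only for the comparison of the injuries and in an alternative fit.

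Portal fibroblasts lie in the connective tissue around the bile ducts and the portal vessels, next to the biliary epithelium. They make collagen, elastin-associated glycoproteins and proteoglycans of the portal tract, and they are known as matrix-producing cells in cholestatic injury, when the ducts proliferate and scar tissue forms around them. Ligation of the common bile duct blocks bile flow and injures the portal region first, whereas CCl4 is activated by hepatocytes around the central vein and injures that region. Hepatic stellate cells and vascular smooth muscle cells are the other GFP-labelled mesenchymal cells of the liver.

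Depth per portion ranged from 5101153 gene reads in BDL 2 of plate 1 to 45092070 in the BDL portion of plate 4, and the median well held 355254 to 522670 gene reads. Levels are given as reads per 1000000 gene reads of a portion (RPM), in the order BDL 1 and BDL 2 of plate 1, BDL of plate 2 and BDL of plate 4, then uninjured of plates 1, 2 and 4. They are not corrected for gene length and are compared only within a gene. Selection thresholds cut through few wells. Among wells low in smooth muscle reads, the nearest to the fibroblast threshold held 101 reads inside and 99 outside, with 11 wells inside and 9 outside within a factor of 2. Among wells that met the fibroblast threshold, the nearest held 82 smooth muscle reads inside and 100 outside, with 14 and 13 wells within a factor of 2.

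Fibroblast markers that the selection did not use were abundant in every portion. Cd34, the surface sialomucin that marks portal fibroblasts, ranged from 649 to 1522 RPM, the collagen-binding proteoglycan Lum from 3597 to 5829 RPM and Mfap4 from 1660 to 3348 RPM. The exception was Fbln2, which held 0.0719 RPM in the uninjured portion of plate 2 against 309 to 1114 RPM in the other portions. Among 8 stellate cell markers, Ecm1 stood at 397 to 953 RPM, whereas Lrat was at 0 in 3 of 7 portions and at most 11.8 RPM, and Reln was at most 11.03 RPM. The other stellate markers were at 3.33 to 151 RPM (Rgs5), 21.5 to 154 RPM (Colec11), 8.72 to 77.0 RPM (Pth1r), 8.56 to 102 RPM (Hgf) and at most 13.01 RPM (Vipr1). The 8 summed to 690, 529, 1007 and 967 RPM in BDL and to 1132, 841 and 1155 RPM in uninjured portions. Wells with at least 10 reads of 3 or more of them numbered 2 of 88, 4 of 14, 5 of 77 and 9 of 113 in BDL and 16 of 48, 5 of 31 and 10 of 52 in uninjured portions. The 6 endothelial markers summed to 0 to 33.3 RPM. Of the hepatocyte markers, Alb was at most 50.5 RPM, while Cyp2e1 was at 28.1, 787, 265 and 53.0 RPM in BDL portions and at 1104, 1170 and 397 RPM in uninjured portions. Leucocyte markers summed to 484 RPM in the BDL portion of plate 4, mainly Cd74 at 248.8 RPM and Lyz2 at 194 RPM, and to 0.392 to 199 RPM elsewhere. Smooth muscle markers summed to 226, 1043, 1675 and 502 RPM in BDL and to 1031, 1318 and 428 RPM in uninjured portions. Of these, Acta2 reached 889 RPM and Actg2 158 RPM in the BDL portion of plate 2. Wells with at least 10 reads of 3 or more smooth muscle markers numbered 6 of 88, 5 of 14, 13 of 77 and 21 of 113 in BDL. In uninjured portions they numbered 14 of 48, 13 of 31 and 16 of 52. The part these other markers play in the values below was not tested, except where a value without such wells is given.

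The share of wells that met the rule was 52.1, 17.5, 45.03 and 45.4% in BDL portions and 37.8, 24.2 and 40.6% in uninjured portions. The means were 40.0% ± 15.3 (SD, n = 4) and 34.2% ± 8.77 (SD, n = 3), and the difference was within the spread of the portions (two-sided exact permutation test, p = 0.514). With 4 portions against 3 an exact permutation test cannot go below p = 0.0571. The permutation tests of this paragraph took no account of plate, although each plate held both conditions. The log2 of gene reads per spike-in read of the median well was 9.12 ± 1.08 in BDL and 8.75 ± 0.23 in uninjured portions (exact permutation p = 0.686). After each well was thinned to 50000 reads, the median well showed 3215 ± 1068 genes in BDL and 2834 ± 545 in uninjured portions (exact permutation p = 0.686). BDL 2 of plate 1 was highest in both measures, and without it both differences turned negative, at -0.06 on the log2 scale and -23.2 genes.

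Gene expression was then compared between BDL and uninjured portions with edgeR's quasi-likelihood test, with plate in the model and Benjamini-Hochberg adjustment over all genes fitted. The 7 genes that chose the wells were fitted and adjusted with the rest. They are left out of the 13137 genes counted here as tested. At an adjusted p of 0.05, 1 gene was higher in BDL (0.00761% of those tested) and 0 were lower (0%). At an unadjusted p under 0.05, 506 genes were higher (3.85%) and 271 lower (2.06%), together 5.91% of those tested, and DESeq2 called 290 higher (2.21%) and 94 lower (0.716%) with the same model. The called gene was Spp1 (chromosome 5 of GRCm38.p6, 104435111 to 104441053), which encodes osteopontin, a secreted phosphoprotein that binds integrins and CD44 and is abundant in bile duct epithelium.

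Spp1 was at 596, 2176, 975 and 631 RPM in the 4 BDL portions and at 0.449, 0.144 and 0.469 RPM in the uninjured portions. Every BDL portion thus lay far above every uninjured portion of plates 1, 2 and 4, and the fitted log2 difference was 11.43 ± 0.86 (SE; edgeR adjusted p = 0.0362). The uninjured portion of plate 3, outside this comparison but chosen by the same rule, held Spp1 within the range of the BDL portions. Its value is given with the CCl4 portions below. These reads came from few wells. At least 10 Spp1 reads were seen in 5 of 88, 2 of 14, 10 of 77 and 9 of 113 BDL wells and in 0 wells of the uninjured portions. One well held 88.2% and 64.2% of the Spp1 reads in BDL 1 and BDL 2 of plate 1, and 21.6% and 38.3% in the BDL portions of plates 2 and 4. With the highest well of each gene and portion left out, an alternative chosen after the data were seen, the BDL portions were still at 71.3, 828, 773 and 393 RPM, the uninjured at 0.358, 0.0741 and 0.400 RPM, and the log2 difference was 10.78, but the call was lost (edgeR adjusted p = 0.303). In the 8 wells of the BDL portion that was left out, Spp1 stood at 0.691 RPM.

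Bile duct cells express Spp1, so the wells with at least 10 Spp1 reads were examined for other genes. Of these wells, 25 of 26 held at least 10 reads of the collagen gene Col1a1 and 22 of 26 at least 10 of the proteoglycan gene Dcn, while 2 of 26 held at least 10 reads of a cholangiocyte marker. All had been chosen by fibroblast gene reads, and 97.4 to 100% of the fibroblast wells of a BDL portion held at least 10 Col1a1 reads. The Col1a1 count therefore does not set the Spp1 wells apart. Over all fibroblast wells of a portion, Epcam was at 0 to 23.97 RPM and Krt19 at 0 to 20.3 RPM. Epcam, Krt19, Krt7 and Krt8 each reached 10 reads in at most 1 fibroblast well of a portion. The count of 2 of 26 is to be read against that. Once wells with 3 or more markers of another cell type were left out, and with them BDL 2 of plate 1, the log2 difference of Spp1 was 10.42 and the adjusted p 0.124 (edgeR). Wells of the same livers that met neither the fibroblast nor the smooth muscle condition held Spp1 at 12510 RPM in 13 wells of BDL 1 on plate 1, 12250 RPM in 9 wells on plate 2 and 21760 RPM in 9 wells on plate 4, with at least 10 Spp1 reads in 8 of 13, 1 of 9 and 8 of 9 of them. Those wells carried Krt19 at 1653, 0 and 1025 RPM in the same order, and the 1 such well of BDL 2 on plate 1 held 0 Spp1 reads with Krt19 at 2300 RPM. Whether RNA from such cells reached the fibroblast wells was not tested.

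**Figure D1:**
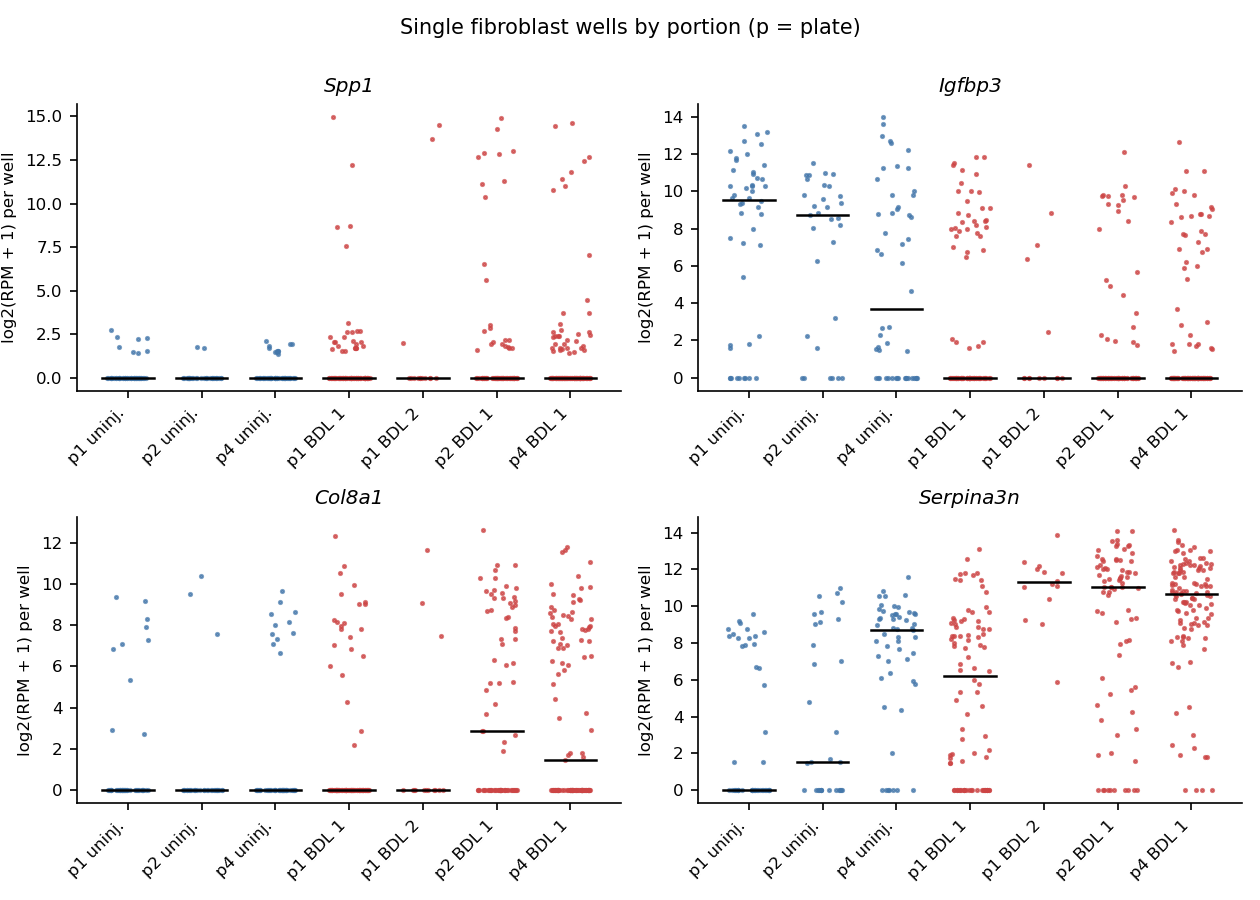
Level of Spp1, Igfbp3, Col8a1 and Serpina3n in each fibroblast well, as log2(RPM + 1), by portion, with the 3 uninjured portions (blue) left and the 4 BDL portions (red) right on the x axis. Each point is 1 well, and the black line is the median well of the portion. Most BDL wells lie at 0 for Spp1 with 5 of 88, 2 of 14, 10 of 77 and 9 of 113 wells at 10 reads or more, whereas Igfbp3 is spread over many wells of each portion.

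Sequence before the transcription start is shown for Spp1, the called gene, and for Igfbp3, the gene of lowest unadjusted p among those lower in BDL, because both windows hold the 7-base RUNX core and Runx1 is one of the transcription factors measured. The windows are the 250 bases before a transcript start (RefSeq, GRCm38.p6), written 5′ to 3′ on the strand of the gene. For Spp1 that start is the first base of the gene's span. For Igfbp3 it lies inside the span, which on the - strand begins at 7215498. The Igfbp3 window is thus not the sequence before the outermost start of that gene. Capitals mark AACCACA or its reverse complement TGTGGTT, searched on both strands.
Spp1, chr5:104434861-104435110, + strand: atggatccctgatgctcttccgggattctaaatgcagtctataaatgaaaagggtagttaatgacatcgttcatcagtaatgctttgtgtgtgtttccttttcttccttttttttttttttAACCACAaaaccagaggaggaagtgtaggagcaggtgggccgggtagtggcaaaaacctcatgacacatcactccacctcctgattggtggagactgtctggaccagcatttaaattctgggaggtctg
Igfbp3, chr11:7213924-7214173, - strand: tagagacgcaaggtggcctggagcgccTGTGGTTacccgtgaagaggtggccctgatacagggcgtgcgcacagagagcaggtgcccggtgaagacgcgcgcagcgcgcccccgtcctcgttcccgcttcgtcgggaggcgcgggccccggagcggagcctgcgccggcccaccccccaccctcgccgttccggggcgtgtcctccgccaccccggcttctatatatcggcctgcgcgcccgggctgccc
The first base of the match lay 129 bases before the start used in Spp1 and 223 before the one used in Igfbp3. The same letters occurred in 1444 of 32851 mouse windows of this length, or 4.40%. Because the match was the reason for showing these windows, that share is no measure of enrichment here. Whether Runx1 acts on either gene was not tested. Runx1 was at 30.0, 169, 118 and 67.6 RPM in BDL and at 35.9, 44.2 and 7.78 RPM in uninjured portions, which overlapped (log2 1.98 ± 0.67, SE; edgeR adjusted p = 0.834).

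The remaining genes are described by whether the portions overlapped, since no listed gene other than Spp1 passed the adjusted threshold. Every BDL portion lay above every uninjured portion for 583 of the 13137 genes tested (4.44%) and below for 554 (4.22%), together 8.65%, and the median log2 difference over all genes tested was 0.09. In what follows, "above" and "below" have this meaning, with no test attached, and list counts are to be read against those shares. They set every portion against every other and take no account of plate, whereas the fitted log2 differences compare portions within plates. A set of 89 genes that did not overlap was checked further, some of them chosen after their values were seen. Of these, 15 overlapped or tied once the highest well of each portion was left out. They were Cdk1, Cdc20, Col11a1, Col4a1, Itga1, Clu, Hspa8, Ier2, Ifi27, Tap2, S100a10, Bambi, Chrdl1, Cxcl5 and Cyp1b1.

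Of the 32 gene lists examined, fibrillar collagens had the largest share of genes above. Of 15 fibrillar and associated collagen genes tested, 6 were above, 0 below and 9 overlapped, with a median log2 difference of 0.84. Col1a1, which encodes the major chain of type I collagen, was at 5110, 9903, 6915 and 6949 RPM in BDL and at 3495, 2029 and 3085 RPM in uninjured portions (log2 1.37 ± 0.34, SE; edgeR adjusted p = 0.638). Its partner chain Col1a2 was at 6374, 11433, 10070 and 8116 RPM against 5175, 4609 and 5423 RPM. For both chains the groups were apart, and the lowest BDL portion was BDL 1 of plate 1. Col8a1, a short-chain collagen of vascular and remodelling tissue, was at 182, 314, 395 and 248 RPM against 48.9, 66.9 and 62.1 RPM (log2 2.35 ± 0.32, SE; edgeR adjusted p = 0.284). It was read in 21.4 to 54.6% of BDL wells and 9.68 to 21.2% of uninjured wells. One well held 46.3% and 82.8% of the Col8a1 reads in BDL 1 and BDL 2 of plate 1, and without the highest well these portions were at 99.2 and 58.6 RPM against at most 52.05 RPM in uninjured portions. In the 8 wells of the BDL portion that was left out, Col8a1 stood at 24.5 RPM, below every uninjured portion. In the same wells Igfbp3, at 147 RPM, and Serpina3n, at 4805 RPM, lay on the side of the other BDL portions, which are given below. Col5a2, which helps to set fibril diameter, was at 994 to 2908 RPM in BDL and 485 to 675 RPM in uninjured portions. Col11a1, another fibril-nucleating chain, was at 1.49, 89.7, 113 and 57.9 RPM in BDL and at 0, 0 and 0.0391 RPM in uninjured portions, but the Col11a1 value of BDL 1 on plate 1 came from 53 reads of 1 of its 88 wells. Col3a1, the type III chain, overlapped, since BDL 1 of plate 1 at 9993 RPM lay below the uninjured portion of plate 1 at 10224 RPM. Within plates 1, 2 and 4, with the BDL portions of plate 1 averaged, its log2(RPM + 1) was higher in BDL by 0.56, 1.10 and 0.81, and within-plate differences below are on this scale.

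**Figure D2:**
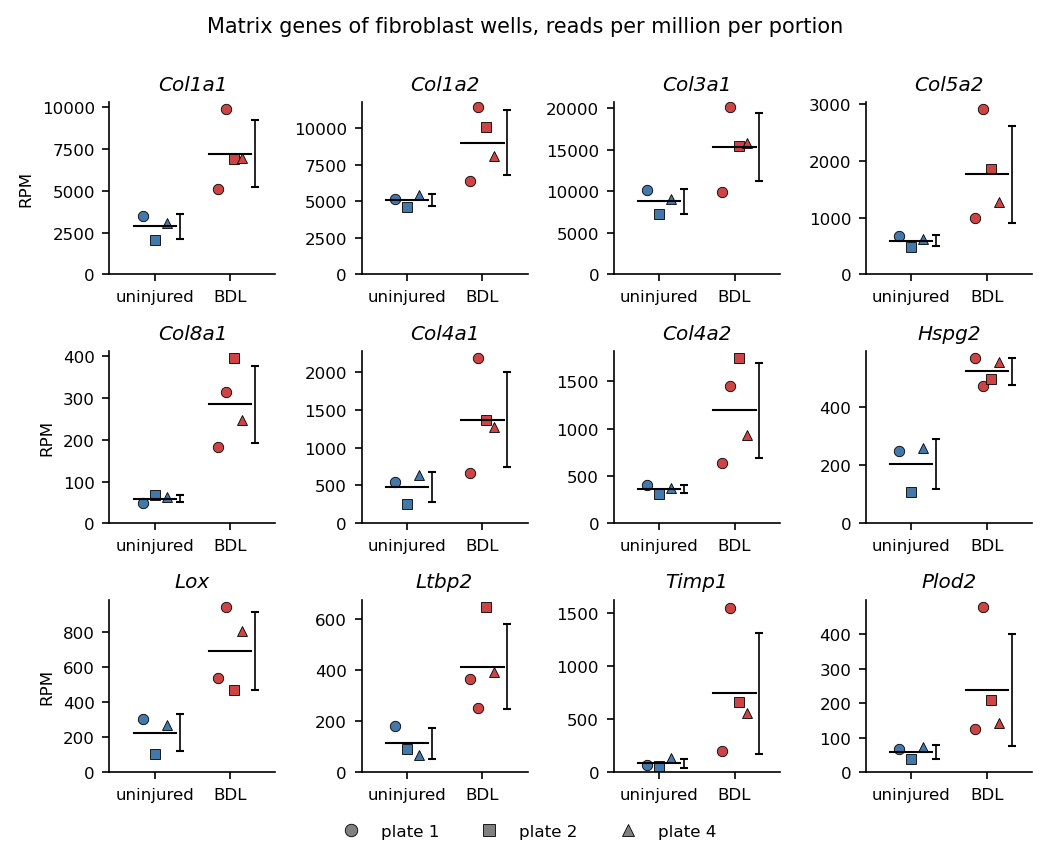
RPM of 12 matrix genes in the 3 uninjured (blue) and 4 BDL (red) portions, 1 panel per gene, on a linear axis from 0. Each point is a portion, its shape gives the plate, the line is the mean and the bracket the SD of the portions. For Col1a1 the BDL portions sit between 5110 and 9903 RPM, all above the uninjured portions at 2029 to 3495 RPM.

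Basement membrane genes were mostly overlapping, with 3 of 12 above and 0 below (median log2 0.08). The type IV collagen pair Col4a1 and Col4a2 and perlecan (Hspg2) were the 3 genes. Hspg2 was at 568, 471, 497 and 555 RPM in BDL and at 248, 106 and 259 RPM in uninjured portions, a narrow range in BDL well clear of the controls (log2 1.46 ± 0.32, SE; edgeR adjusted p = 0.623). Of 17 elastic fibre genes, 3 were above and 2 below (median log2 0.55). Lox, the enzyme that cross-links collagen and elastin, was at 537, 941, 471 and 809 RPM against 304, 103 and 270 RPM, and the microfibril gene Mfap2 at 464, 424, 372 and 364 RPM against 224, 222 and 178 RPM. The microfibril-associated gene Ltbp2 was the other one above. Elastin itself (Eln) overlapped, with 748 to 1824 RPM in BDL and 296 to 835 RPM in uninjured portions.

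Matricellular genes, whose products sit in the matrix and act on cells rather than build fibres, had a median log2 difference of 1.23 over 16 genes, with 3 above and 0 below. Besides Spp1 these were Sparc, a collagen-binding glycoprotein, at 7862 to 12408 RPM in BDL and 4436 to 6651 RPM in uninjured portions, and Wisp1, a CCN family member, at 66.2, 168, 221 and 74.6 RPM against 5.89, 3.95 and 21.9 RPM (log2 4.08 ± 0.91, SE; edgeR adjusted p = 0.623). Wisp1 was read in 23.9 to 50% of BDL wells and 6.45 to 13.5% of uninjured wells. The small proteoglycans, which bind collagen fibrils and regulate their spacing, showed no such set, with 0 of 10 above, 0 below and a median log2 difference of -0.22.

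Of 16 genes of proteases and their inhibitors, 3 were above and 0 below (median log2 0.41), namely the gelatinase gene Mmp2, the membrane-bound collagenase gene Mmp14 and the inhibitor gene Timp1. Timp1 was at 197, 1547, 665 and 561 RPM in BDL and at 65.0, 56.7 and 133 RPM in uninjured portions, so its lowest BDL portion was again BDL 1 of plate 1 (log2 3.24 ± 0.79, SE; edgeR adjusted p = 0.638). Mmp14 varied less, at 809, 895, 928 and 742 RPM against 352, 434 and 534 RPM. Among 18 genes of collagen folding and export, the lysyl hydroxylases Plod1 and Plod2 and the prolyl 3-hydroxylase Lepre1 were above, and Pcolce, which speeds removal of the procollagen C-propeptide, was below at 933, 1060, 936 and 1369 RPM against 1798, 1800 and 1830 RPM. Plod2 was at 127, 478, 209 and 144 RPM against 66.1, 37.2 and 73.7 RPM. The protease that Pcolce assists, Bmp1, was above, at 304, 383, 417 and 477 RPM against 190, 107 and 258 RPM. Of 16 integrin and adhesion genes, 4 were above (Itga1, Cdh2, Cdh11 and Cd9) and 0 below (median log2 0.60). Cdh11, the cadherin of mesenchymal cells, was at 133, 158, 125 and 169 RPM against 115, 51.6 and 62.9 RPM, with the uninjured portion of plate 1 close to the BDL values.

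Contractile genes did not separate the groups. None of 14 was above, 1 was below, and the median log2 difference was 0.06. Acta2, smooth muscle actin and a classical myofibroblast marker, was at 66.5, 448, 889 and 301 RPM in BDL and at 319, 509 and 116 RPM in uninjured portions (log2 0.56 ± 0.64, SE; edgeR adjusted p = 0.943). Both groups spanned low and high portions. The smooth muscle genes Myh11 and Cnn1 were used to choose the wells, which bears on any contractile gene that goes with them. Des, the intermediate filament gene desmin, was the one below, at 45.4, 160, 75.5 and 45.9 RPM against 383, 423 and 191 RPM. Itga8, an integrin chain of stellate cells and myofibroblasts, was at 43.6, 29.6, 105 and 25.6 RPM against 302, 211 and 95.4 RPM, and only the BDL portion of plate 2 overlapped the controls. Within plates 1, 2 and 4 the log2 differences of Itga8 were -3.01, -0.99 and -1.86. Wells with 3 or more stellate markers, counted above, made up a larger share of the uninjured portion than of the BDL portions on each of these plates. The same held for wells with 3 or more smooth muscle markers, also counted above, except for BDL 2 of plate 1. Its share was larger than that of the uninjured portion of its plate. Without the wells that held 3 or more markers of another cell type, the fitted log2 difference was -2.30 for Des (-2.07 with them) and -1.81 for Itga8 (-2.09 with them). That alternative also left out BDL 2 of plate 1. Des is itself among the smooth muscle markers that chose the wells to leave out, so its value cannot show the part such wells play. Of 10 genes listed for portal myofibroblasts and mesothelium, 7 could be tested. The fitted log2 difference was positive for 4 and negative for 3 of them (median log2 0.92), with 0 above and 1 below. That gene was Gpc3, a membrane-anchored proteoglycan that binds hedgehog and growth factors, at 147, 50.4, 20.5 and 140 RPM in BDL and at 367, 368 and 347 RPM in uninjured portions. Gpc3 was read in 18.2 to 42.0% of BDL wells and 51.6 to 72.9% of uninjured wells.

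Growth factor and morphogen genes lay on both sides. Igfbp3, a secreted protein that carries insulin-like growth factors (chromosome 11 of GRCm38.p6, 7206086 to 7215498), had the lowest unadjusted p of the genes lower in BDL. It was at 303, 245, 152 and 188 RPM in BDL and at 1875, 691 and 1319 RPM in uninjured portions, and the groups were well apart (log2 -2.56 ± 0.26, SE; edgeR adjusted p = 0.117). The difference was spread over many wells, with a read in 31.2 to 42.0% of BDL wells and 65.4 to 81.2% of uninjured wells. Igf1 itself was above, at 902, 1854, 707 and 816 RPM against 470, 270 and 662 RPM. Of 19 genes of the PDGF, FGF and IGF axes, these were the only ones that did not overlap (median log2 0.08). Pdgfrb, whose promoter region drives the reporter, was at 832, 431, 1097 and 742 RPM against 690, 343 and 642 RPM, and the reporter transcript eGFP at 483, 227, 553 and 404 RPM against 441, 290 and 410 RPM, and both overlapped.

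**Figure D3:**
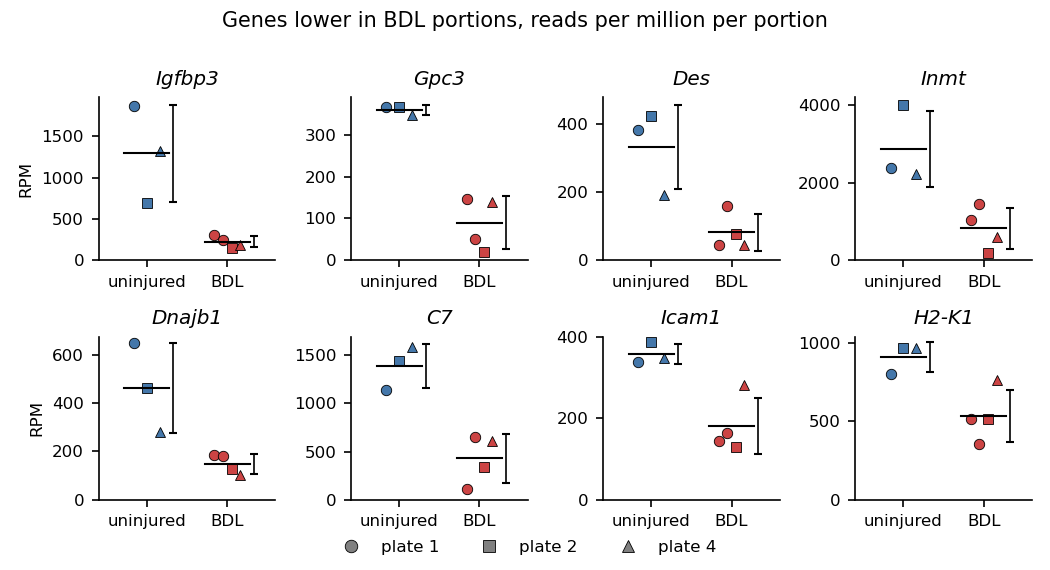
RPM of 8 genes whose BDL portions (red) all lay below the uninjured portions (blue), 1 panel per gene, on a linear axis from 0. Each point is a portion, its shape gives the plate, the line is the mean and the bracket the SD of the portions. For Igfbp3 the BDL portions sit between 152 and 303 RPM, all below the uninjured portions at 691 to 1875 RPM.

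In the TGF-beta axis, the receptor gene Tgfbr2 and the latency-binding gene Ltbp3 were above, and the secreted target Tgfbi and the pseudoreceptor gene Bambi were below, among 15 genes (median log2 0.34). Tgfbi was at 756, 1301, 769 and 812 RPM in BDL and at 1862, 2493 and 1339 RPM in uninjured portions, where BDL 2 of plate 1 nearly reached the lowest control. Tgfbr2 was at 449, 860, 649 and 647 RPM against 394, 271 and 426 RPM. In the BMP axis, Bmp1 and Fstl1 were above and the ligand Bmp4 and the antagonist Chrdl1 below, of 14 genes (median log2 -0.31). Bmp4 was at 155, 13.7, 162 and 137 RPM against 290, 414 and 196 RPM. Dkk3, a secreted member of the Dickkopf family, was the 1 gene above in the Wnt axis (14 tested, median log2 0.73), at 635, 947, 1151 and 498 RPM against 280, 317 and 446 RPM. Of 14 hedgehog and Notch genes, only Hhip, which binds and sequesters hedgehog ligands, did not overlap, with reads in 1 of 4 BDL portions (5.41 RPM) and 67.8, 128 and 29.2 RPM in uninjured portions. The hedgehog target Gli1 was at 4.26, 19.6, 21.1 and 23.5 RPM against 36.6, 42.5 and 19.4 RPM, which overlapped.

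Among inflammatory genes, Serpina3n, an acute phase serine protease inhibitor, was at 672, 3784, 3235 and 2649 RPM in BDL and at 119, 327 and 538 RPM in uninjured portions, with BDL 1 of plate 1 near the highest control (log2 3.40 ± 0.73, SE; edgeR adjusted p = 0.623). Haptoglobin (Hp) was at 37.96, 22.5, 53.7 and 35.6 RPM against 0, 0 and 12.5 RPM, and it was read in 9.09 to 22.1% of BDL wells. Without the highest well of each portion Hp was at 31.9, 8.96, 15.4 and 30.2 RPM against 0, 0 and 0.160 RPM. The NF-kB target genes Tnfaip3 and Icam1 were below, and Icam1, an adhesion receptor for leucocytes, was at 146, 163, 130 and 282 RPM against 340, 388 and 350 RPM. Over 19 acute phase and NF-kB or STAT3 genes the median log2 difference was 0.30. Of 21 chemokine and cytokine genes, 3 were above and 2 below (median log2 -0.02). Ccl9, a chemokine that binds CCR1, was at 8.86, 27.1, 32.4 and 17.0 RPM in BDL and at 0 in the 3 uninjured portions, but it was read in 6.49 to 21.4% of BDL wells only, and 1 well held up to 94.2% of a portion's reads. Ccl19, a ligand of CCR7, was below, at 2.89, 3.53, 8.33 and 7.21 RPM against 20.8, 77.2 and 18.6 RPM. Leucocyte markers were highest in the BDL portion of plate 4 (484 RPM in sum), as given above, and their part in these values was not tested.

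Of 16 complement genes, clusterin (Clu) was above and C2, C7 and Serping1 below, while the fitted log2 difference was positive for 9 and negative for 7 (median log2 0.39). C7, a component of the membrane attack complex, was at 108, 651, 337 and 613 RPM in BDL and at 1142, 1441 and 1587 RPM in uninjured portions, and it was read in 43.2 to 76.1% of BDL and 83.3 to 96.8% of uninjured wells. C2, a classical pathway protease, was tighter, at 244, 258, 359 and 288 RPM against 550, 717 and 480 RPM (log2 -0.93 ± 0.22, SE; edgeR adjusted p = 0.638). Of 12 genes of MHC class I presentation, H2-K1, B2m and Tap2 were below and 0 above (median log2 -0.54). H2-K1, a class I heavy chain, was at 513, 357, 514 and 761 RPM against 800, 966 and 967 RPM, so BDL of plate 4 lay just below the controls. H2-K1 shares sequence with other class I genes, and reads of near-identical copies could be split between them. Of 20 interferon-stimulated genes, 0 were above and Ifitm3 and Ifi27 were below (median log2 -0.61). Ifitm1, a membrane protein of this family, was at 180, 228, 115 and 121 RPM against 706, 1090 and 198 RPM, and overlapped through the uninjured portion of plate 4, with log2 differences of -1.79, -3.23 and -0.70 within plates 1, 2 and 4.

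Heat shock genes were the list with the largest share below. Of 9 heat shock genes, Hspa8, Hsph1, Dnajb1 and Hspe1 were below and 0 above, with a median log2 difference of -1.13. Dnajb1, a co-chaperone of HSP70, was at 183, 182, 125 and 102 RPM in BDL and at 648, 462 and 279 RPM in uninjured portions (log2 -1.69 ± 0.23, SE; edgeR adjusted p = 0.265), and it was read in 32.5 to 57.1% of BDL and 64.6 to 75.0% of uninjured wells. Hspa1a, an inducible HSP70 gene, overlapped, at 392, 226, 355 and 32.3 RPM against 2248, 233 and 186 RPM, the first control being 1 high portion. Of 18 immediate early genes, Ier2 was below and 0 were above (median log2 -0.54). Egr1, a zinc finger factor induced within minutes of stimulation, overlapped at 3552, 1620, 1360 and 2217 RPM against 3194, 5740 and 4771 RPM. None of 18 unfolded protein response genes was above or below (median log2 -0.13). Txnrd1 was above and the peroxiredoxin gene Prdx1 below among 16 metallothionein and antioxidant genes (median log2 0.08).

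Cell cycle genes were low throughout. Of 14 tested, the mitotic genes Cdk1 and Cdc20 were above and the replication genes Pcna and Mcm2 below (median log2 1.32). Cdk1 was at 10.8, 7.25, 3.999 and 12.6 RPM in BDL and at 0.0499, 0 and 0.117 RPM in uninjured portions. In some portions these reads came from single wells. One well held 100% and 97.25% of the Cdk1 reads in BDL 2 of plate 1 and BDL of plate 2, and 97.62 to 100% of the Cdc20 reads in each BDL portion. In BDL 1 of plate 1 and BDL of plate 4, Cdk1 was spread over more wells, with at least 10 reads in 6 of 88 and 13 of 113. The highest well there held 25.65% and 19.43% of the Cdk1 reads, and without it Cdk1 was at 8.10 and 10.2 RPM. Without the highest well, Cdc20 was at most 0.0224 RPM in BDL, and both genes overlapped or tied with the controls. For Cdk1 this was through BDL 2 of plate 1, at 0 RPM without its highest well. Pcna was at 27.8, 12.4, 27.1 and 21.3 RPM against 29.6, 63.3 and 49.0 RPM, the opposite order. Among 18 genes of glycolysis and hypoxia, the glucose transporter gene Slc2a1 and Bnip3 were above (median log2 0.12). Of 17 genes of cholesterol synthesis and bile acid response, Fdft1 and the sterol exporter gene Abcg1 were above and 0 below (median log2 0.09), and Abca1, the other sterol exporter, overlapped by 1 pair of portions at 207, 136, 156 and 262 RPM against 60.4, 69.3 and 142 RPM, with log2 differences of 1.49, 1.16 and 0.88 within plates 1, 2 and 4. Of 15 genes of lipid and retinoid handling, Apoe and Rarres2 were below (median log2 0.02). Apoe, a lipid-carrying apolipoprotein, was at 3017, 2984, 5966 and 6512 RPM against 9783, 10583 and 7715 RPM, so the BDL portions of plate 1 were lowest. Ptgs1 was the 1 of 10 prostaglandin genes above.

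S100a4, a calcium-binding protein often used as a fibroblast marker, was the 1 gene above among 15 S100 and annexin genes (median log2 -0.04). It was at 99.7, 545, 128 and 90.1 RPM in BDL and at 21.8, 19.0 and 14.1 RPM in uninjured portions (log2 3.21 ± 0.67, SE; edgeR adjusted p = 0.623), with reads in 34.1 to 85.7% of BDL and 20.8 to 28.8% of uninjured wells. Its relative S100a10 was below, at 382, 232, 273 and 465 RPM against 548, 489 and 764 RPM. Of 16 genes listed as fibroblast subset genes, Ccl19, Inmt and Bmp4 were below and 0 above (median log2 -0.37). Inmt, an indolethylamine methyltransferase, was at 1043, 1444, 199 and 602 RPM in BDL and at 2379, 4017 and 2225 RPM in uninjured portions, and was read in 22.1 to 65.5% of BDL against 91.7 to 96.8% of uninjured wells. Of 22 lineage transcription factors, Wt1 was above and Twist2 and Snai2 below (median log2 0.00). Tcf21, a factor of mesenchymal progenitors, was at 98.4, 109, 51.5 and 87.7 RPM against 239, 107 and 233 RPM, and overlapped through the uninjured portion of plate 2. Its log2 differences within plates 1, 2 and 4 were -1.20, -1.04 and -1.40.

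**Figure D4:**
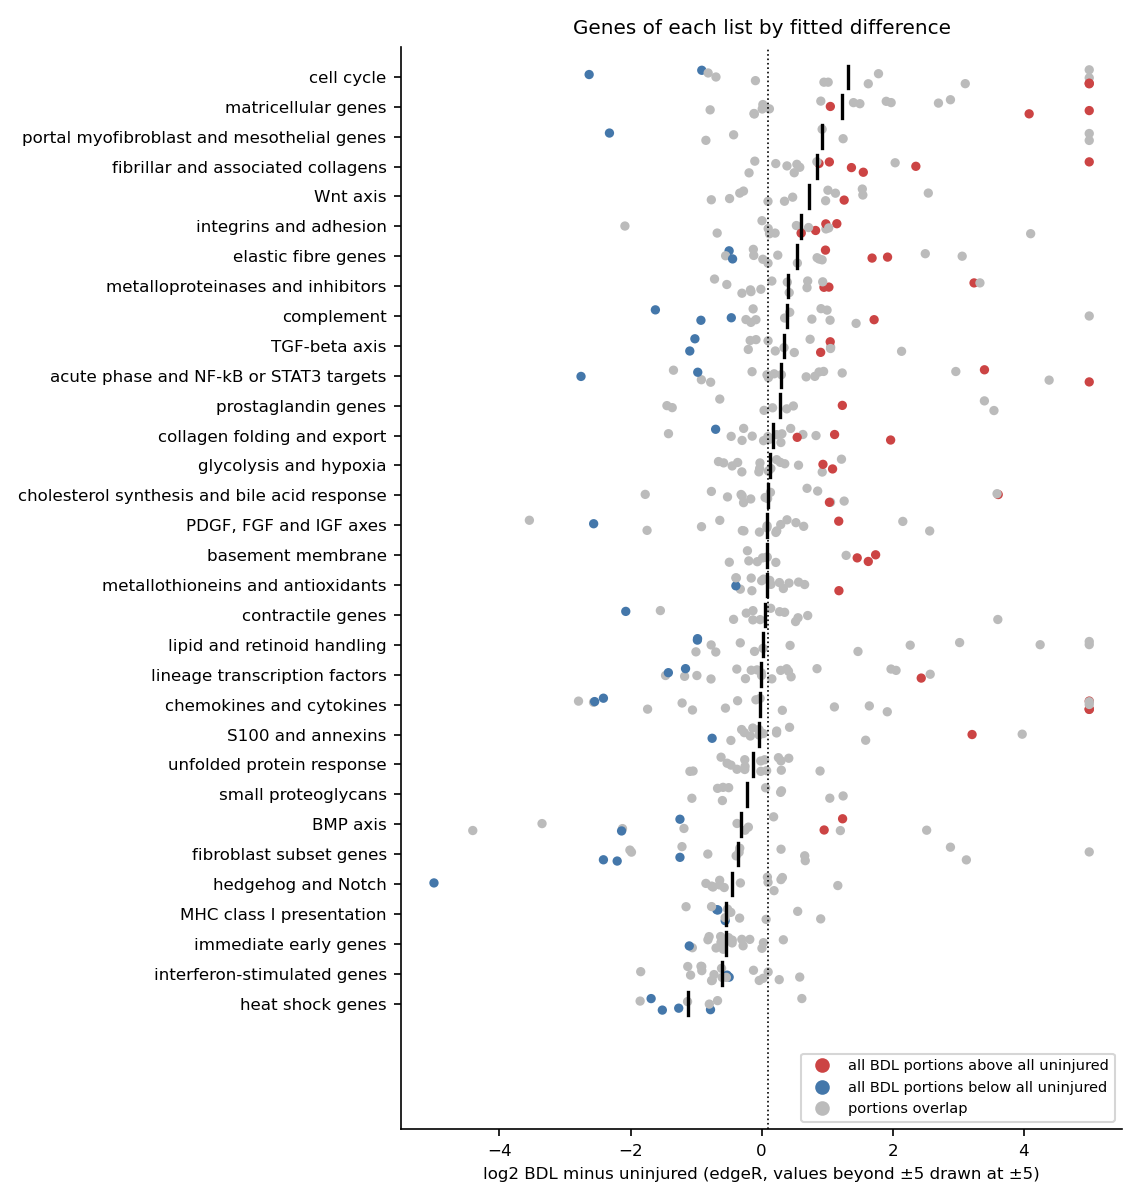
Fitted log2 difference between BDL and uninjured portions for every gene tested in 32 gene lists, 1 row per list, with values beyond 5 in size drawn at 5. Each point is a gene, red where all BDL portions lay above, blue where all lay below and grey where they overlapped, the black tick is the median of the list and the dotted line that of all genes tested. The fibrillar collagen row has its median at 0.84 and the heat shock row at -1.13, against 0.09 over all genes tested.

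The BDL difference was set against the difference between CCl4 and uninjured fibroblast wells of plates 3 and 5, chosen in the same way (358 wells, 4 CCl4 and 2 uninjured portions). The effects share no control portion, and no plate holds both injuries, so plate and injury are told apart only through the uninjured portions of each plate. Of 13804 genes tested, 0 (0%) passed an adjusted p of 0.05 for the difference of the effects in edgeR, 737 (5.34%) had an unadjusted p under 0.05, and DESeq2 called 208. The log2 difference of Col1a1 was 1.37 after BDL and -0.29 after CCl4, with a difference between them of 1.67 ± 0.49 (SE; edgeR adjusted p = 0.882). Col1a1 in CCl4 portions was at 6636 and 5394 RPM on plate 3, above the uninjured portion of that plate at 4543 RPM. On plate 5 the CCl4 portions were at 3447 and 2485 RPM, below the uninjured portion at 5562 RPM. The fitted CCl4 difference thus pools plates of opposite direction.

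**Figure D5:**
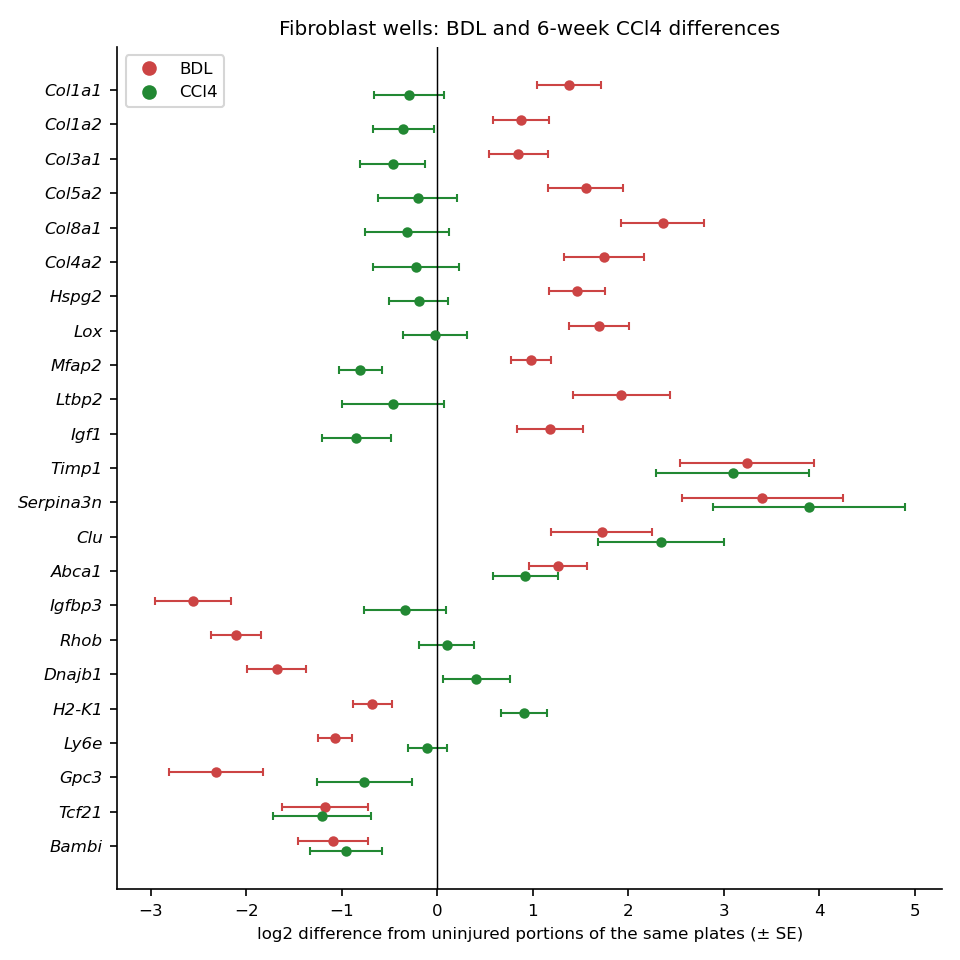
Fitted log2 difference from the uninjured portions of the same plates after BDL (red) and after 6 weeks of CCl4 (green), 1 row per gene, both from 1 fit over plates 1 to 5. Points are estimates and bars 1 SE. For Timp1 the estimates sit side by side at 3.25 and 3.09, while for Col8a1 they are 2.36 and -0.32.

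No gene of this paragraph passed an adjusted p of 0.05 in edgeR for the difference between the injuries. Values of single CCl4 portions are given only for H2-K1 and Spp1, so for the others the plates may differ in direction. For Col8a1 the values were 2.36 after BDL and -0.32 after CCl4, for Mfap2 0.98 and -0.81, for Lox 1.69 and -0.02 and for Igf1 1.18 and -0.85 on the log2 scale. The lower genes Igfbp3, Rhob (a small GTPase) and Dnajb1 stood at -2.56, -2.11 and -1.68 after BDL and at -0.34, 0.10 and 0.41 after CCl4. H2-K1 had opposite signs, with -0.68 after BDL and 0.91 after CCl4, and its CCl4 portions were at 1328, 1429, 1756 and 1260 RPM against 817 and 723 RPM in uninjured portions of plates 3 and 5. For other genes the estimates after both injuries lay within 1 SE of each other, which does not show that the injuries act alike. Timp1 was at 3.25 and 3.09 (difference 0.15 ± 0.94, SE), Serpina3n at 3.40 and 3.89 (-0.48 ± 1.14), Clu at 1.72 and 2.34 (-0.62 ± 0.79) and Tcf21 at -1.17 and -1.21 (0.03 ± 0.70). Spp1 could not be placed in this way, since in the uninjured portions of plates 3 and 5 it was at 924 and 0.0768 RPM, while CCl4 portions were at 984, 69.3, 240 and 362 RPM.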

How the data were processed

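The authors sequenced single sorted cells with Smart-seq2, mapped the reads with STAR to a mouse reference (mm10) extended by eGFP and spike-ins, and deposited raw counts per gene and well from rpkmforgenes, not normalized. The submitters' processing notes also name Cell Ranger 2.1.0. The STAR version is not given in the sources used here.

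Rows sharing a symbol were summed (279 symbols, at most 0.0310% of a plate's reads). Control wells were left out. Members, gene lists, tests and named genes were chosen with earlier results of these data known. Reads were summed per layout entry and plate and fitted with edgeR 4.0.16 (TMM, filterByExpr, robust quasi-likelihood, plate and condition), with Benjamini-Hochberg adjustment over all genes and a threshold of 0.05. DESeq2 1.42.0 and limma 3.58.1 (R 4.3.3) were alternatives, and Python 3.11.15 with SciPy 1.17.1 gave exact permutation tests over portions. The edgeR fit was also run on simulated portions with set differences, and its rate of detection is not given here.

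Named genes were those past the threshold, at least 20 RPM and without overlap of portions, up to 5 genes of smallest adjusted p in each of 32 lists, and Col1a1, Col1a2, Col3a1, Acta2, Pdgfrb and eGFP. Lrg1, Rhob, Tppp3, Lgmn, Gda, Nfasc, Per3, Dbp, Nr1d1, Bhlhe40, Arntl, Npas2, Cyp1b1, Qpct, Ly6e, Npl, P4ha3, Saa3 and Sntg1, and listed genes beyond that rule, were chosen after their values were seen. Read counts without molecular identifiers are not independent molecules.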

Additional observations from a re-analysis of the deposited data

Results flagged for a closer look

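In 78 groups of 4 BDL portions, 1 portion lay far from the other 3 for 7 genes, by Dixon's 95% criterion, which chance meets in about 1 of 20 groups. BDL 2 of plate 1, with 14 wells, was the high portion for Lepre1 (205 RPM), Tgfbi (1301 RPM), Igf1 (1854 RPM) and S100a4 (545 RPM). The BDL portion of plate 4 was the high one for Hhip (5.41 RPM) and Tppp3 (188 RPM), and that of plate 2 for Gda (110 RPM).

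Wells that met neither the fibroblast nor the smooth muscle condition held Spp1 at 12510 RPM (BDL 1 of plate 1), 12250 RPM (BDL of plate 2) and 21760 RPM (BDL of plate 4), above the 0 RPM of such wells in the uninjured entries of plates 1 and 2, where there were 2 and 4 wells. At least 10 Spp1 reads were seen in 8 of 13, 1 of 9 and 8 of 9 of these BDL wells, so the value of plate 2 came almost wholly from 1 well, and the 1 such well of BDL 2 on plate 1 held 0 Spp1 reads.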

How the results depend on the processing

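Few portions, and single wells that hold much of a gene's reads, limit these results, and the smallest two-sided exact p that 4 portions against 3 allow is 0.0571. The alternatives with plates 1 and 2 summed, a plate left out, the highest well left out or the CCl4 plates in the fit were chosen after the data were seen. Plates 1, 2 and 4 each held both conditions, and plate was the block of the fit as reported. No paired analysis was possible because no label pairs BDL with uninjured mice, beyond this block.

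The count of genes called between BDL and uninjured portions, 1 in the fit as reported, was 0 with at least 500 fibroblast reads, with wells chosen by Pdgfra, Clec3b and Dpt alone, with wells holding other cell types' markers left out, with plates 1 and 2 summed, with the highest well of each gene left out, and without plate 1, plate 2 or plate 4. It was 2 without the plate term, with fewer than 20 smooth muscle reads, with the study's well filter and with limma on mean RPM, 5 without a filter on low counts, 6 with the CCl4 plates in the fit, 66 with 1 sum per entry name and 384 with DESeq2. Of the 384 DESeq2 genes, 319 had an unadjusted edgeR p under 0.05 and 384 the same sign. Leaving out 1 portion gave 0 to 2 genes. Spp1 stayed past the threshold in 12 of 24 alternatives (log2 9.37 to 12.01, adjusted p 3.19e-71 to 0.464), and was lost without the uninjured portion of plate 1 (adjusted p 0.271) or plate 2 (0.279), or without the BDL portion of plate 2 (0.353) or plate 4 (0.295). These 12 are not all separate, since leaving out BDL 2 of plate 1 and requiring at least 20 wells per portion gave the same fit. They also include the fit with 1 uninjured sum. The cause of the lost calls was not tested.

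For the difference between the BDL and CCl4 effects, 0 in the fit as reported, 5 genes were called without the plate term, 208 with DESeq2, 3 without a filter, 2 with limma on mean RPM, 4 with 1 sum per entry name and 1 with plates 1 and 2 summed. Genes above in every BDL portion, 583 as reported, numbered 1168 with other cell types' markers left out and 992 with at least 20 wells per portion, and genes below, 554 as reported, numbered 616 and 824. Both alternatives left out BDL 2 of plate 1, and the cause of the unequal change was not tested. When 1 portion was left out, 798 to 1258 genes were above and 815 to 1282 below, since fewer portions overlap less often by construction. Gene reads per spike-in read turned to -0.0716 as a ratio of summed reads, and ranged from -0.0592 to 0.783 when 1 portion was left out. The difference in genes per well turned to -1.625 at 5 reads per gene, and ranged from -23.2 to 817 when 1 portion was left out. Over 76 genes and 1824 alternative values, 1733 kept direction and side of the threshold, 74 became called, 12 lost the call (all Spp1) and 5 turned sign, all for eGFP, at -0.18 with 1 sum per entry name, -0.0107 with plates 1 and 2 summed, -0.17 without plate 2, and -0.18 to 0.50 when 1 portion was left out.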

Other observations

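Genes outside the lists, chosen after their values were seen, also separated the portions. Rhob, a small GTPase of the actin cytoskeleton and endosomes, was at 264, 320, 173 and 217 RPM in BDL and at 1043, 1216 and 824 RPM in uninjured portions (log2 -2.11 ± 0.28, SE; edgeR adjusted p = 0.265), with a read in 67.5 to 89.4% of BDL and 95.8 to 100% of uninjured wells. Lrg1, a secreted leucine-rich glycoprotein, was at 17.6, 112, 74.2 and 113 RPM against 0.0499, 0 and 0 RPM (edgeR adjusted p = 0.156), but 1 well held up to 99.8% of a portion's reads. That was BDL 1 of plate 1, where 2 of 88 wells held an Lrg1 read. Without its highest well it was at 0.0283 RPM against 0 RPM in the uninjured portions, so the groups stayed apart only by a trace. Gda, the guanine deaminase, was at 91.8, 93.1, 110 and 92.3 RPM against 25.3, 30.8 and 14.3 RPM, the narrowest BDL range of these genes, and was read in 29.9 to 64.3% of BDL and 8.33 to 11.5% of uninjured wells. Lgmn, a lysosomal protease, was at 307, 361, 262 and 265 RPM against 91.6, 105 and 81.6 RPM. Nfasc, a cell adhesion molecule, was at 49.0, 163, 81.7 and 87.4 RPM against 10.3, 6.32 and 12.6 RPM, and the cytochrome gene Cyp1b1 at 310, 239, 233 and 544 RPM against 26.9, 23.3 and 222 RPM, where the uninjured portion of plate 4 nearly reached BDL. Without the highest well of each portion, Cyp1b1 no longer separated the groups. Per3, a component of the circadian clock, was at 98.4, 93.1, 156 and 72.7 RPM against 13.6, 6.39 and 18.6 RPM. Other clock genes that did not overlap included Dbp, Nr1d1 and Bhlhe40, above, and Arntl and Npas2, below. These were picked because they did not overlap, as did 8.65% of all genes tested. The clock genes Per1, Per2, Cry1, Cry2, Clock and Nr1d2 were not among the genes above or below, so they overlapped or were not tested. The hours at which livers were taken are not given in the sources used here, and the part of time of day was not tested.

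Among genes lower in BDL, Ly6e, a GPI-anchored surface protein, was at 919, 966, 839 and 1161 RPM against 2301, 1989 and 1979 RPM. Qpct, which forms N-terminal pyroglutamate, was at 69.9, 70.8, 56.3 and 60.6 RPM against 200, 183 and 167 RPM. Tppp3, a tubulin-binding protein that marks some connective tissue fibroblasts, was at 56.9, 58.4, 40.2 and 188 RPM against 213, 173 and 559 RPM, overlapping through plate 4 alone, and within each plate the BDL portions were lower.

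With the CCl4 plates in the same fit, an alternative chosen after the data were seen, edgeR called 6 genes for BDL against uninjured. Gda (log2 2.15), Npl (9.07), P4ha3 (8.37), Saa3 (9.48) and Sntg1 (11.17) were higher and Rhob (-2.11) lower, with adjusted p from 0.00655 to 0.0369. P4ha3, a collagen prolyl hydroxylase, was at 13.04, 23.1, 25.2 and 24.3 RPM in BDL and at 0.0998, 0 and 0.0782 RPM in uninjured portions. Spp1 was not among the 6 genes. The CCl4 portions also enter the filter on low counts and the estimate of spread in that fit. Saa3 was not among the genes above on plates 1, 2 and 4, so its portions there overlapped or it was not tested there. Npl and Sntg1 were above, with a mean under 20 RPM in both conditions.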
